A study of Mus musculus with 10 samples.

Results

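The 10 genes described here belong to the protein-breakdown machinery of striated muscle and comprise 6 ubiquitin ligase genes (Trim54, Trim55, Trim63, Fbxo32, Fbxo30 and Trim32), the 3 calpain genes Capn1, Capn2 and Capn3, and the calpain inhibitor gene Cast. They were taken by gene symbol from a table of 23337 genes, where all 10 were found, and all 10 passed the filter on low counts that left 11870 genes. The samples are cardiomyocytes, the contractile cells of the heart, from 10 mice at postnatal day 14. The knockout group (5 mice, genotype Actn2-FF) carries a pair of floxed alleles of Actn2, the gene of the Z-line crosslinker alpha-actinin-2. The control group (5 mice, genotype Actn2-F+) carries 1 floxed allele and is called heterozygote here. Every animal in both groups received the virus AAV9-cTNT-Cre on postnatal day 1, in which a cardiac troponin T promoter drives Cre recombinase, so the controls also lose their floxed copy in transduced cells. Cells were isolated by collagenase perfusion and sorted by fluorescence. The labels used here give neither the strain nor the sex of the animals, nor the signal used for the sort.

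Ubiquitin ligases choose the proteins that are tagged with ubiquitin and passed to the proteasome, and calpains are calcium-activated proteases that cut proteins at selected sites. MuRF proteins (muscle RING finger, encoded by Trim63, Trim55 and Trim54) sit on the sarcomere and on microtubules of muscle cells, and atrogin-1, encoded by Fbxo32, is the substrate receptor of a cullin-based ligase. Trim63 and Fbxo32 are known as atrogenes, which rise in many settings of muscle wasting.

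The promoter windows of 3 members are shown first, since 2 of these genes were called different between the groups (Trim54 and Trim32) and Trim63 is the MuRF relative of Trim54 with the highest level. Each is the stretch of 250 bases that ends just before the annotated start, on the gene's own strand, from the RefSeq promoter table (build GRCm38.p6, the same coordinates as mm10). Capitals mark matches, on either strand, to the motifs named after them. The windows are chr5:31116362-31116611 (plus strand) for Trim54, chr4:134314870-134315119 (plus strand) for Trim63 and chr4:65604736-65604985 (plus strand) for Trim32.
Trim54: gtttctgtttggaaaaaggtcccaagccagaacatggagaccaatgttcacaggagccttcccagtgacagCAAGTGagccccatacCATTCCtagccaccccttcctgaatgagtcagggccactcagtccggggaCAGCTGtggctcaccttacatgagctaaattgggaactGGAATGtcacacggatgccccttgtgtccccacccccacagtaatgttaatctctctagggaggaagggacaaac
Trim63: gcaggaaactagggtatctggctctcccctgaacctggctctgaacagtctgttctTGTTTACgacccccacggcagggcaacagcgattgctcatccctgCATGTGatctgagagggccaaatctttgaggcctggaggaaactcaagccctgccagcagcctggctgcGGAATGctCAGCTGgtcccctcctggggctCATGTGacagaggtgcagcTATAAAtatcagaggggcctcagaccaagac
Trim32: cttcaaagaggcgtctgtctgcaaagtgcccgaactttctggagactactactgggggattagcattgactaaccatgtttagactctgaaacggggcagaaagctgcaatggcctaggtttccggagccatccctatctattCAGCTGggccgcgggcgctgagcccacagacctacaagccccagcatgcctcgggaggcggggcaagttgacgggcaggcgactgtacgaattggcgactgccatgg
The motifs searched were the FOXO site GTAAACA, the MCAT element CATTCC, the E-box CANNTG, the TATA box TATAAA, and the MEF2 and CArG sites, which are given by name. MCAT matches stood in the Trim54 window at 163 to 158 and at 75 to 70 bases before the start, and in the Trim63 window at 80 to 75 bases. A match to the FOXO site stood in the Trim63 window at 194 to 188 bases before the start, and a TATA box at 31 to 26 bases. The Trim32 window held a single match, an E-box at 107 to 102 bases. No match overlapped another, and no MEF2 or CArG match stood in these 3 windows. Among 32841 promoter windows of this length, 12.6% held an MCAT match, 66.2% an E-box, 12.4% a TATA box, 3.17% the FOXO site, 0.509% the MEF2 site and 1.47% the CArG site. These matches describe the letters only. Entries were found for 8 of the 10 members, the others being Trim55 and Fbxo32.

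Library totals ran from 8086656 to 25237696 counts, with heterozygote 1 the deepest. Actn2, the targeted gene, was at 1145 to 1286 CPM (the usual per-library scaling of read counts, here with library totals adjusted by the TMM method) in the knockouts and at 2677 to 3474 CPM in the heterozygotes, so the 10 libraries matched their labels. The 12 cardiomyocyte markers summed to 120918 to 157109 CPM. Markers of other cell types were present at lower levels. Endothelial markers summed to 957 to 1716 CPM in the heterozygotes and 627 to 1149 in the knockouts (2 of 16 called by edgeR, both lower, with 11 lower at an unadjusted p below 0.05), and mural and smooth-muscle markers to 1132 to 1526 and 719 to 878 CPM (2 of 10 lower, 1 higher). The number of endothelial markers called was unstable: it was 7 without knockout 4, 5 without heterozygote 5, 1 to 3 without any other single animal, 1 with library totals alone, 6 with the Y-linked covariate, 7 with DESeq2 and 10 with the replicate block. Leukocyte markers summed to 15.3 to 76.4 and 10.6 to 14.6 CPM, and fibroblast markers to 378 to 641 and 382 to 746 CPM. No marker of these 4 types was at 0 in all libraries. Heterozygote 3 stood apart in interferon-response genes, with 1006 CPM against 85.7 to 108 in the other 9 libraries. Knockout 5 stood apart in atrial cardiomyocyte markers, with 385 CPM against 38.5 to 108. Xist was at 42.8 to 50.8 CPM in heterozygotes 3 and 5 and knockout 5, where the Y-linked genes Ddx3y, Uty and Kdm5d were at 0, and at 0 to 0.222 CPM in the other 7 libraries, so 2 heterozygotes and 1 knockout have the expression pattern of females. In such bulk samples, fewer cells of a type and less RNA per cell cannot be told apart.

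Of the 10 members, 2 were called different between the groups, Trim54 lower and Trim32 higher in the knockout. A gene is called here where the p of the quasi-likelihood test in edgeR, adjusted over all tested genes, is below 0.05. The background was 18.9% of all tested genes (10.2% higher and 8.64% lower), so the count of 2 in 10 is near it. Over all genes 54.3% of the calls were higher in the knockout, and with scaling by library totals alone 68.9%, where the median log2 fold change moved from 0.0023 to 0.0839. The median absolute log2 fold change over all tested genes was 0.224. Among the members the log2 fold changes ran from -0.83 (Trim54) to 0.69 (Trim32), and the other 8 lay between -0.06 and 0.32. In 3 members (Trim54, Trim63 and Trim32) the values of the groups did not overlap, against 14.7% of all tested genes (8.41% higher and 6.32% lower in the knockout).

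**Figure D1:**
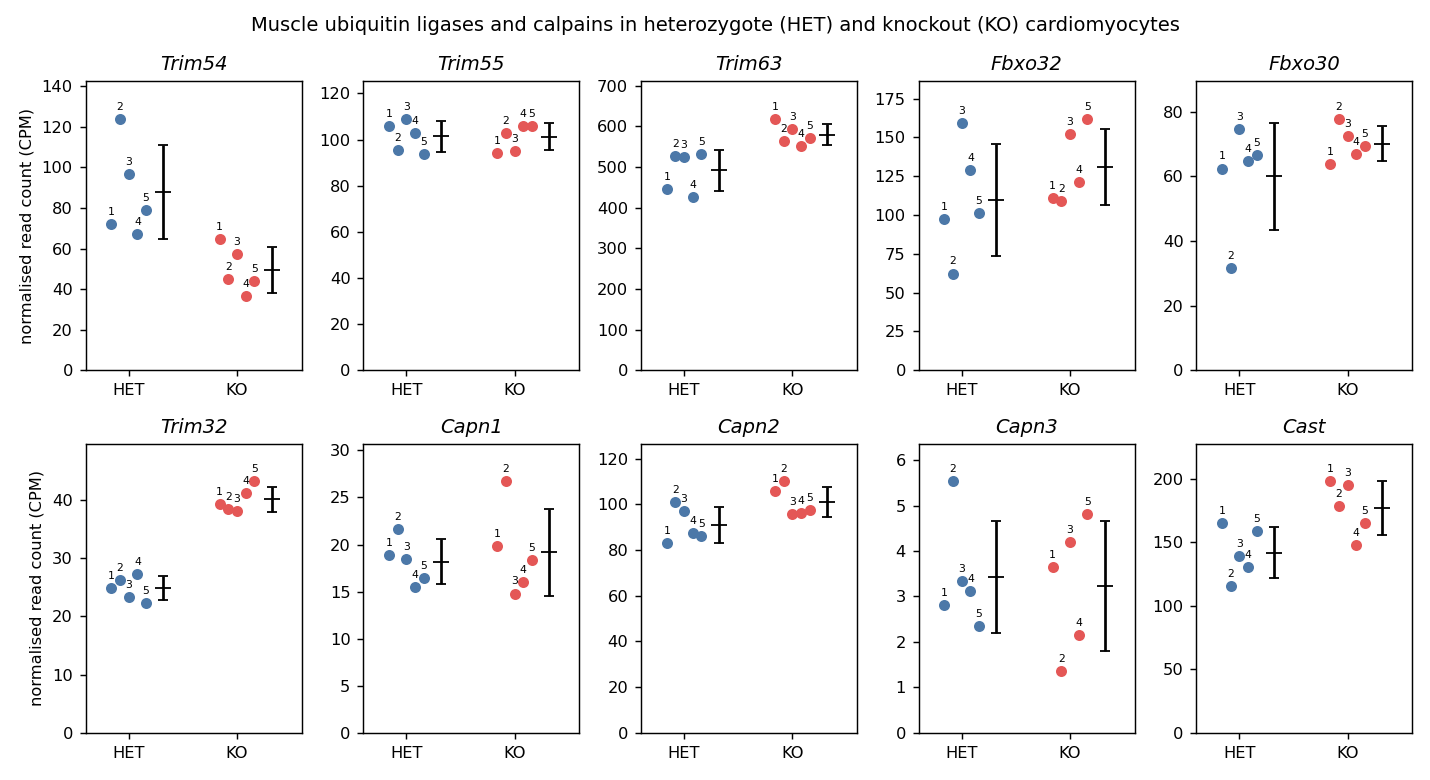
Normalised read counts (CPM, y axis from 0) of the 10 members in each animal, with heterozygotes in blue, knockouts in red and the replicate number above each point. The black mark and bar are the mean and SD of 5 animals. All knockouts lie below all heterozygotes for Trim54 and above them for Trim63 and Trim32.

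The MuRF genes did not move together. Trim54 encodes MuRF3, a RING-finger protein of the Z-line and of stable microtubules, and lies on chromosome 5 at 31116612 to 31137626. It was at 71.9, 124, 96.9, 67.3 and 78.8 CPM in heterozygotes 1 to 5, and the knockouts, in the same order, had 64.8, 44.8, 57.4, 36.7 and 43.9 CPM. The highest knockout, number 1, was just under the lowest heterozygote, number 4, and heterozygote 2 was well above the rest. The means were 87.9 ± 23.3 and 49.5 ± 11.3 CPM (SD, n = 5), which gives -0.83 on the log2 scale (SE 0.182, 95% interval -1.22 to -0.44, edgeR adjusted p 0.00569), or 0.564 times the heterozygote level. Counting error was small beside the spread between animals: 358 to 1712 reads per library give a counting error of 5.29% to 2.42%, and the animals' coefficients of variation were 26.6% and 22.8%. Without heterozygote 2 the log2 fold change was -0.67 (adjusted p 0.0115), and without heterozygote 3 it was -0.79 (adjusted p 0.0123).

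Trim63 encodes MuRF1, which tags sarcomere proteins such as troponin I for breakdown, and lies on chromosome 4 at 134315120 to 134329629. Its levels were 447, 528, 524, 426 and 533 CPM in the heterozygotes and 619, 565, 593, 552 and 572 CPM in the knockouts. Every knockout was above every heterozygote, by a narrow margin between knockout 4 and heterozygote 5. The means were 492 ± 51.0 and 580 ± 26.2 CPM (SD, n = 5), with a log2 fold change of 0.24 (SE 0.0889, 95% interval 0.05 to 0.43, unadjusted p 0.0178 and adjusted p 0.0773 by edgeR), so the gene did not pass the threshold over all genes. It did pass without heterozygote 2 (0.27, adjusted p 0.0479), with scaling by library totals alone (0.32, adjusted p 0.0130) and with limma's voom (0.24, adjusted p 0.0465), and over all alternatives the adjusted p ran from 0.0130 to 0.440.

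Trim55 encodes MuRF2, which binds the titin kinase region together with the adaptors Nbr1 and p62, and lies on chromosome 3 at 19644460 to 19691599. It was at 106, 95.5, 109, 103 and 93.9 CPM in the heterozygotes and 94.3, 103, 95.2, 106 and 106 CPM in the knockouts. The groups covered nearly the same range. The log2 fold change was -0.007 (SE 0.0832, 95% interval -0.19 to 0.17, adjusted p 0.966 by edgeR), an interval that leaves room for a level 0.880 to 1.13 times that of the heterozygote.

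Levels of different genes were compared per length, as CPM per kb of exon. Trim63 was at 261 ± 27.1 CPM per kb in the heterozygotes, Trim54 at 57.3 ± 15.2 and Trim55 at 56.8 ± 3.75 (SD, n = 5), so the last pair was level in controls. In the knockouts they stood at 308 ± 13.9, 32.3 ± 7.38 and 56.6 ± 3.28 CPM per kb. As a share of the 3 MuRF genes in each animal, Trim54 made up 13.7%, 19.6%, 15.7%, 13.4% and 13.3% in the heterozygotes, in order of number, and 9.99%, 7.57%, 9.24%, 6.37% and 7.32% in the knockouts. These shares did not overlap, and the mean went from 15.1% ± 2.67 to 8.10% ± 1.48. The Trim63 share went from 69.6% ± 2.10 to 77.6% ± 0.131, also without overlap, and ran only from 77.5% to 77.8% over the 5 knockouts. The ratio of Trim63 to Trim54 was 3.45 to 5.50 in the heterozygotes and 7.76 to 12.2 in the knockouts. The shares and the ratio restate the member values and were not tested.

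**Figure D2:**
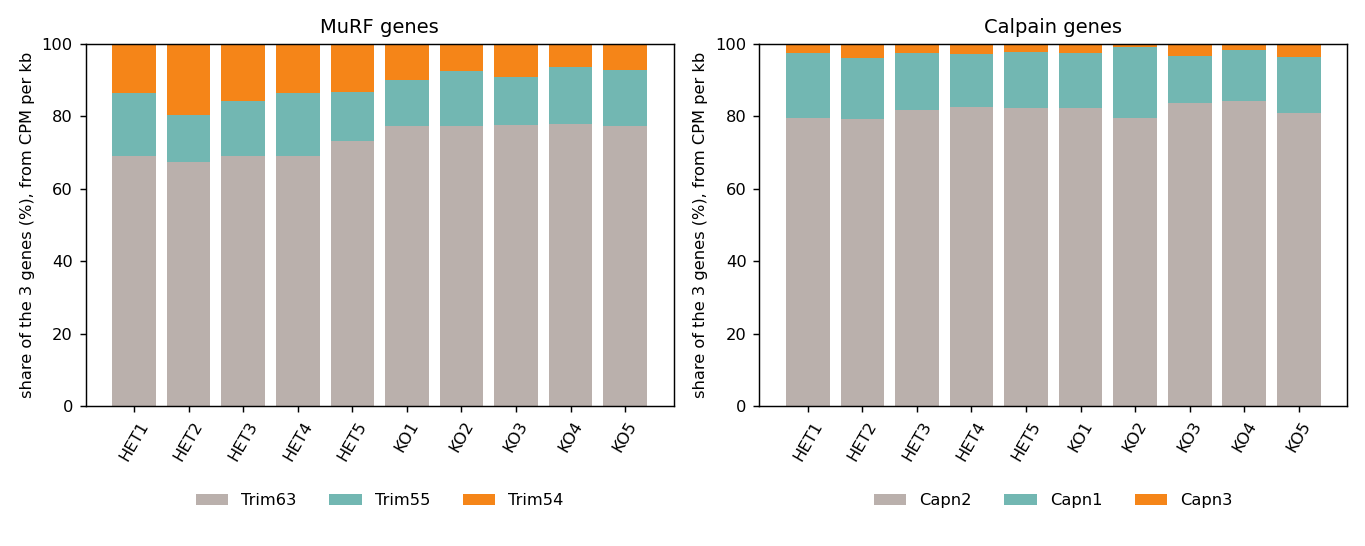
Share of each gene within its family in every animal, from CPM per kb, for the MuRF genes (left) and the calpains (right), with heterozygotes (HET) before knockouts (KO). Trim54 takes 13.3% to 19.6% of the MuRF genes in heterozygotes and 6.37% to 9.99% in knockouts, and the calpain shares overlap between the groups.

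Trim32 encodes a TRIM-family ligase that acts on actin and other thin-filament and Z-band proteins, and that is mutated in a form of limb-girdle muscular dystrophy. It lies on chromosome 4 at 65604986 to 65616240, within the span of Astn2 on the opposite strand, with which it shares no exon bases in the counting annotation. It was at 24.9, 26.2, 23.3, 27.3 and 22.3 CPM in the heterozygotes and at 39.3, 38.4, 38.1, 41.2 and 43.1 CPM in the knockouts. Both groups were tight, and all 5 knockouts lay clear of all 5 heterozygotes. The means were 24.8 ± 2.02 and 40.0 ± 2.07 CPM (SD, n = 5), with a log2 fold change of 0.69 (SE 0.0932, 95% interval 0.49 to 0.89, edgeR adjusted p 0.000162), or 1.61-fold. Of the members it had the lowest p, ranking 226 among all tested genes. Counting used no strand, so reads of unspliced Astn2 that fall on Trim32 exons would be counted here. Astn2 itself had 11 to 76 reads per library on its own exons, against 182 to 761 for Trim32.

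Both calls were set beside the marker levels of other cells. With the endothelial marker level as a covariate the log2 fold changes were -0.98 for Trim54 (adjusted p 0.0172) and 0.73 for Trim32 (adjusted p 0.00188, edgeR), while the number of genes called over the whole table fell from 2241 to 1248. With Y-linked expression as a covariate they were -0.84 (adjusted p 0.00828) and 0.68 (adjusted p 0.000437). The part of the mural and leukocyte markers, whose sums did not overlap between the groups, was not tested. The mural markers did not move together, and 7 of the 10 were not called. Acta2, the mural marker with the highest heterozygote mean, fell from 714 ± 136 to 202 ± 42.6 CPM (edgeR adjusted p 3.98e-06). The fall in the mural sum therefore rests largely on this gene. Cspg4 rose from 37.0 ± 6.39 to 132 ± 21.3 CPM (edgeR adjusted p 1.23e-06). Trim54 and Trim32 were called in all 10 fits that left out 1 animal, with log2 fold changes of -0.94 to -0.67 and 0.66 to 0.73. Their adjusted p ran from 0.000112 to 0.0177 and from 1.57e-09 to 0.00188 over all alternatives.

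**Figure D3:**
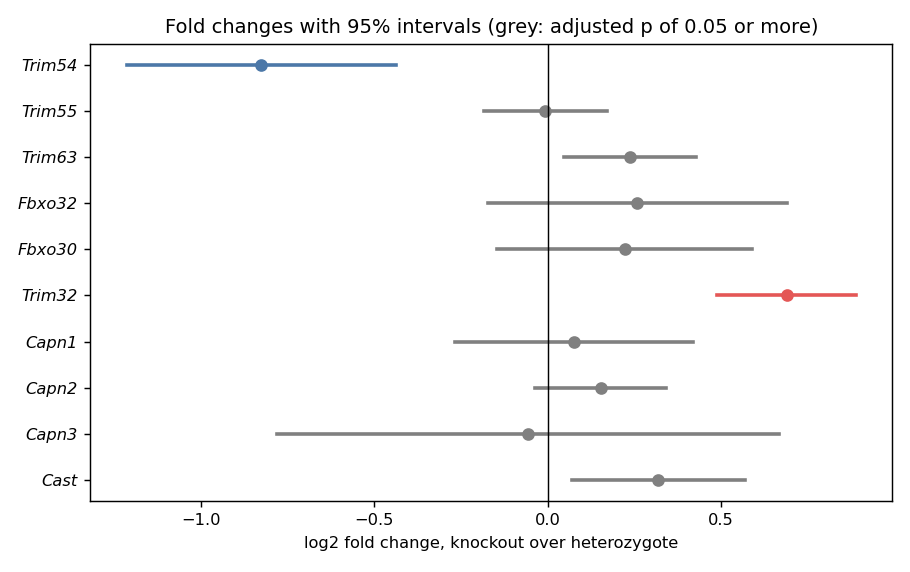
Log2 fold change of knockout over heterozygote for the 10 members (x axis), with 95% intervals from the edgeR fit over 5 animals a group. Trim54 (blue, -0.83) and Trim32 (red, 0.69) passed the threshold, and the intervals of Trim63 and Cast exclude 0 without passing it after adjustment.

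The F-box genes varied more between heterozygotes than between the groups. Fbxo32, on chromosome 15 at 58175879 to 58214892, encodes atrogin-1. It was at 97.2, 62.3, 159, 129 and 101 CPM in the heterozygotes and 111, 109, 152, 121 and 162 CPM in the knockouts. Heterozygote 2 was lowest and heterozygote 3 was close to the highest knockout, so the groups overlapped widely. The means were 110 ± 36.3 and 131 ± 24.3 CPM (SD, n = 5), which gives 0.26 on the log2 scale (SE 0.202, 95% interval -0.17 to 0.69, edgeR adjusted p 0.411). The interval spans 0.887-fold to 1.61-fold. Without heterozygote 2 the log2 fold change was 0.11 (adjusted p 0.681), and without heterozygote 3 it was 0.43 (adjusted p 0.128).

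Fbxo30, on chromosome 10 at 11281330 to 11297969, encodes a further F-box receptor of muscle, also called MUSA1. It was at 62.4, 31.7, 74.6, 64.6 and 66.7 CPM in the heterozygotes and 63.7, 77.8, 72.4, 66.8 and 69.4 CPM in the knockouts. Apart from heterozygote 2, which had the lowest level of all 10 animals, the values of both groups shared 1 range. The log2 fold change was 0.22 (SE 0.172, 95% interval -0.15 to 0.59, edgeR adjusted p 0.406), and without heterozygote 2 it was 0.07 (adjusted p 0.656).

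Of the proteases, Capn1 and Capn2 encode the large subunits of mu-calpain and m-calpain, which share the small subunit Capns1. Capn2, on chromosome 1 at 182467259 to 182517483, was at 83.1, 101, 97.1, 87.4 and 86.3 CPM in the heterozygotes and 106, 110, 95.8, 96.3 and 97.5 CPM in the knockouts. All knockouts were above the heterozygote mean, yet the groups overlapped. The log2 fold change was 0.15 (SE 0.0877, 95% interval -0.04 to 0.34, edgeR adjusted p 0.250). Capn1, on chromosome 19 at 5988545 to 6015825, was at 18.9, 21.6, 18.5, 15.5 and 16.4 CPM in the heterozygotes and 19.8, 26.7, 14.8, 16 and 18.4 CPM in the knockouts. Knockouts held both the lowest and the highest value, and the log2 fold change was 0.08 (SE 0.160, 95% interval -0.27 to 0.42, adjusted p 0.787). Capn1 shares 10.9% of its exon bases with Gm10814, and reads that fall there were lost to both genes.

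Capn3 encodes the muscle-specific calpain that binds titin and whose loss causes a limb-girdle muscular dystrophy, and lies on chromosome 2 at 120463593 to 120504919. It was at 2.81, 5.53, 3.33, 3.11 and 2.36 CPM in the heterozygotes and 3.64, 1.37, 4.19, 2.16 and 4.81 CPM in the knockouts. With 18 to 85 reads per library, counting alone gives an error of 23.6% to 10.8%, and the groups overlapped throughout. The animals' coefficients of variation were larger, 35.8% in the heterozygotes and 44.2% in the knockouts. The log2 fold change was -0.06 (SE 0.338, 95% interval -0.78 to 0.67, edgeR adjusted p 0.933). A change smaller than that interval was not detectable at this depth and with this spread between animals.

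Cast encodes calpastatin, the inhibitor of mu-calpain and m-calpain, and occupies chromosome 13 from 74694286 to 74807921. Actn2 is on the same chromosome, at a distance of 62.4 Mb. It was at 165, 116, 139, 131 and 159 CPM in the heterozygotes and 198, 179, 195, 148 and 165 CPM in the knockouts. Each knockout was above the heterozygote mean, and knockouts 4 and 5 overlapped heterozygotes 1 and 5. The means were 142 ± 20.3 and 177 ± 21.0 CPM (SD, n = 5), with a log2 fold change of 0.32 (SE 0.117, 95% interval 0.07 to 0.57, unadjusted p 0.0161 and adjusted p 0.0722 by edgeR). It passed the threshold without heterozygote 1 (0.38, adjusted p 0.0472), without knockout 4 (0.38, adjusted p 0.0480) and with scaling by library totals alone (0.40, adjusted p 0.0214), and the adjusted p over all alternatives ran from 0.0214 to 0.481. With the endothelial marker level as a covariate the log2 fold change was 0.19 (adjusted p 0.481).

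Per length, Cast stood at 49.0 ± 7.01 CPM per kb in the heterozygotes, Capn2 at 28.6 ± 2.44, Capn1 at 5.70 ± 0.743 and Capn3 at 0.983 ± 0.352 (SD, n = 5). Each of these 4 lay above the next in every heterozygote and every knockout. Capn2 took 79.2% to 82.6% of the 3 calpains in the heterozygotes and 79.7% to 84.3% in the knockouts. The ratio of Capn1 plus Capn2 to Cast was 0.560, 0.965, 0.756, 0.714 and 0.589 in the heterozygotes and 0.578, 0.694, 0.515, 0.688 and 0.638 in the knockouts, and the groups overlapped. In the order of all 10 members in the heterozygotes, Trim63 was highest and Capn3 lowest. Trim54, Trim55 and Cast overlapped as neighbours in that order, as did Fbxo32, Fbxo30 (11.7 ± 3.22 CPM per kb) and Trim32 (7.76 ± 0.633 CPM per kb). Trim63 was above 97.9% of all tested genes per length in the heterozygotes, Trim32 above 51.0% and Capn3 above 11.4%.

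**Figure D4:**
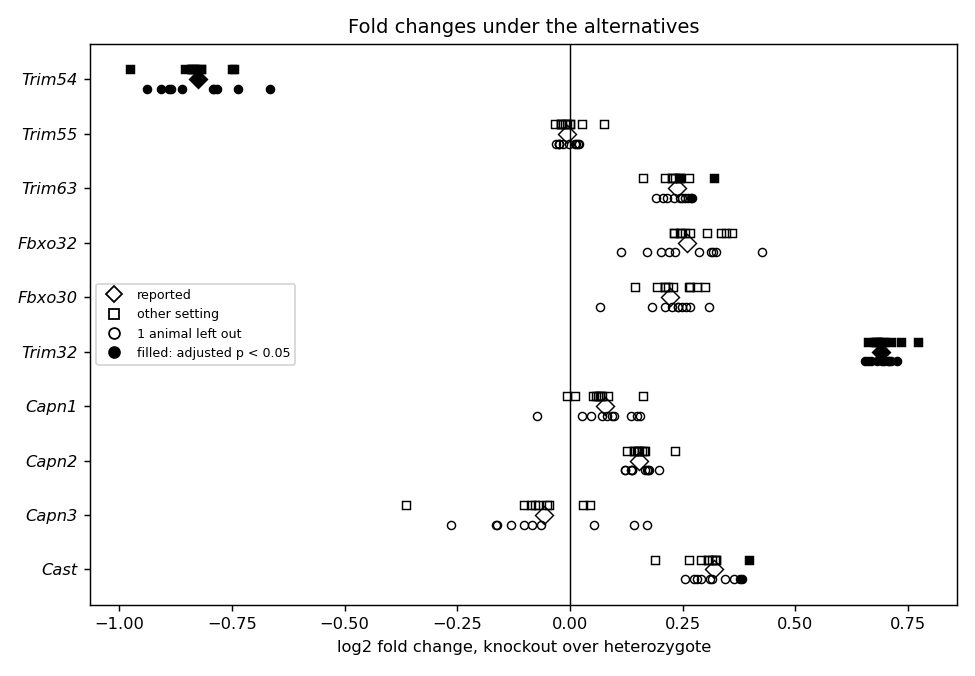
Log2 fold changes of the members (x axis) as reported (diamonds), under the 10 other settings (squares) and with each of 10 animals left out (circles). Filled symbols have an adjusted p below 0.05. Trim54 and Trim32 are filled throughout, Trim63 and Cast in a few fits, and the remaining 6 in none.

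The other genes of these pathways were taken from fixed lists and counted in the same fit. Beside the members, the list of other ubiquitin ligases of muscle held 31 tested genes, with 3 higher and 5 lower in the knockout (25.8% called, median log2 fold change -0.06, against 18.9% and 0.0023 over all tested genes). Asb14, of the ankyrin and SOCS-box family of cullin adaptors, fell to 25.1 ± 4.28 CPM in the knockout from 65.7 ± 6.22 in the heterozygote (means ± SD of 5 animals, log2 fold change -1.38, SE 0.121, edgeR adjusted p 4.11e-06). Its relative Asb15 fell from 62.6 ± 15.9 to 33.9 ± 5.08 CPM (-0.89, SE 0.163, adjusted p 0.00176). The largest rises were those of Rnf115, a RING ligase, from 34.8 ± 4.73 to 61.7 ± 17.1 CPM (0.82, SE 0.169, adjusted p 0.00368), and Cblb, which acts on receptor signalling, from 16.2 ± 2.58 to 25.5 ± 4.86 CPM (0.65, SE 0.155, adjusted p 0.00902). Fbxl22, the F-box protein of the cardiac Z-disc that is known to target alpha-actinin and filamin C, was named after its value was seen. It fell from 258 ± 26.1 to 142 ± 12.1 CPM (-0.87, SE 0.0979, adjusted p 3.73e-05).

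Fbxo32 and Fbxo30 proteins work within cullin ligases. Of 18 core genes and regulators of cullin ligases of several kinds, 5 were called, 4 higher and 1 lower (27.8%, median log2 fold change 0.03). Skp1a, Cul1 and Rbx1, the core of the ligases that use F-box receptors, were not called. Their log2 fold changes were 0.167, 0.024 and -0.019 (edgeR adjusted p 0.326, 0.928 and 0.925). Cand2, a muscle-rich exchange factor of cullins, rose from 243 ± 41.8 to 404 ± 40.2 CPM (0.73, SE 0.120, edgeR adjusted p 0.000764), and the atypical cullin gene Cul9 rose from 28.1 ± 2.96 to 45.6 ± 4.35 CPM (0.70, SE 0.104, adjusted p 0.000368). Ube2m, the Nedd8-conjugating enzyme that activates cullins, fell from 187 ± 41.3 to 129 ± 14.2 CPM (-0.53, SE 0.135, adjusted p 0.0133).

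Deubiquitinases remove ubiquitin and so oppose the ligases. Of 18 such genes, 7 rose and none was called lower by edgeR (38.9% called, median log2 fold change 0.23, with 9 higher and 1 lower at an unadjusted p below 0.05, and 8 higher and 0 lower by DESeq2 and by voom). Uchl1, a ubiquitin hydrolase best known from neurons, went from 12.8 ± 4.91 to 25.7 ± 2.05 CPM (1.01, SE 0.199, adjusted p 0.00274), and Cyld, a deubiquitinase that dampens NF-kB signalling, from 34.8 ± 6.38 to 63.2 ± 6.06 CPM (0.86, SE 0.128, adjusted p 0.000369).

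The lists of proteasome subunits, of ubiquitin with its activating and conjugating enzymes, and of other calpain genes gave no calls in edgeR. Of 31 proteasome subunit genes 0 were called, 0 had an unadjusted p below 0.05, and 0 were called by DESeq2 or voom (median log2 fold change -0.02). That list leaves out the subunit genes Psmb8, Psmb9 and Psmb10, which were counted among the interferon-response genes. By edgeR, Psmb8 and Psmb9 were called lower, at -2.84 (SE 0.875, adjusted p 0.0356) and -3.50 (SE 1.14, adjusted p 0.0449). Their heterozygote levels, 19.8 ± 34.4 and 10.3 ± 20.2 CPM, had an SD above the mean. Psmb8 ran from 2.39 to 81.3 CPM in the heterozygotes and from 1.75 to 3.69 CPM in the knockouts, so the groups overlapped. The summed interferon-response genes, which include both, were at 1006 CPM in heterozygote 3 and at 94.5 to 108 CPM in the other heterozygotes. These 2 calls are therefore not read as a difference shared by the animals of a group. Psmb10 was not called (adjusted p 0.0668). Of 23 genes of ubiquitin itself, its activating enzymes and its conjugating enzymes, 0 were called by edgeR, with 5 at an unadjusted p below 0.05, 3 called by DESeq2 and 1 by voom. For the other calpain genes, 6 of 12 had enough counts for the test and 0 were called, with 1 at an unadjusted p below 0.05, 0 by DESeq2 and 1 by voom. Capns1, the shared small subunit, was at 170 ± 25.0 and 172 ± 22.5 CPM (log2 fold change 0.01, SE 0.120, edgeR adjusted p 0.962).

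Among 24 upstream regulators of the atrogenes that were tested, 2 rose and 1 fell (12.5%, median log2 fold change 0.02). Irs1, the insulin receptor adaptor, rose from 104 ± 16.2 to 171 ± 16.7 CPM (0.72, SE 0.119, edgeR adjusted p 0.000812). Nr3c1, the glucocorticoid receptor gene, rose from 109 ± 10.6 to 135 ± 13.3 CPM (0.31, SE 0.0998, adjusted p 0.0450). Akt1, the kinase that holds FoxO factors out of the nucleus, fell from 309 ± 85.4 to 190 ± 19.6 CPM (-0.70, SE 0.156, adjusted p 0.00619). Foxo1, a FoxO factor that drives Trim63 and Fbxo32, was at 31.7 ± 4.18 and 28.8 ± 2.93 CPM (-0.14, SE 0.116, adjusted p 0.449).

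Of 24 autophagy and lysosome genes, edgeR called 1 higher and 0 lower (3 in each direction at an unadjusted p below 0.05, 2 in each by DESeq2, 3 higher and 0 lower by voom). This gene was Sqstm1, which encodes the adaptor p62 and rose from 399 ± 41.4 to 530 ± 44.1 CPM (0.41, SE 0.0943, adjusted p 0.00758). Sqstm1 also belongs to a list of 9 genes that joins partners of the titin kinase, where MuRF2 acts, with genes of the Z-disc. Of these 9, 4 rose and 1 fell (55.6%, median log2 fold change 0.37). Nbr1, the other adaptor at the titin kinase, was not called (0.195, SE 0.104, adjusted p 0.215 by edgeR). Csrp3, the muscle LIM protein gene, rose from 1470 ± 114 to 2033 ± 332 CPM (0.47, SE 0.110, adjusted p 0.00835), and Tcap (telethonin) from 1438 ± 430 to 2138 ± 214 CPM (0.57, SE 0.165, adjusted p 0.0259).

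With the endothelial marker level as a covariate, the calls were 5 in place of 8 for the other ligases, 2 in place of 5 for the cullin core, 4 in place of 7 for the deubiquitinases, 0 in place of 5 for the titin kinase partners and 0 in place of 1 for autophagy. The titin kinase partners also gave 3 calls in each of the fits without heterozygote 3, heterozygote 5, knockout 2 or knockout 3. Autophagy gave 3 calls without heterozygote 2 and 2 without heterozygote 3 or heterozygote 4, the ubiquitin enzymes gave 1 without heterozygote 5, and the other calpains gave 1 without knockout 4. With scaling by library totals alone there were 3 calls among the ubiquitin enzymes and 3 in autophagy, and the filter at a mean of 5 CPM gave 1 and 2. The Y-linked covariate gave 1 call among the other calpains and 2 in autophagy, where upper-quartile scaling also gave 2.

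**Figure D5:**
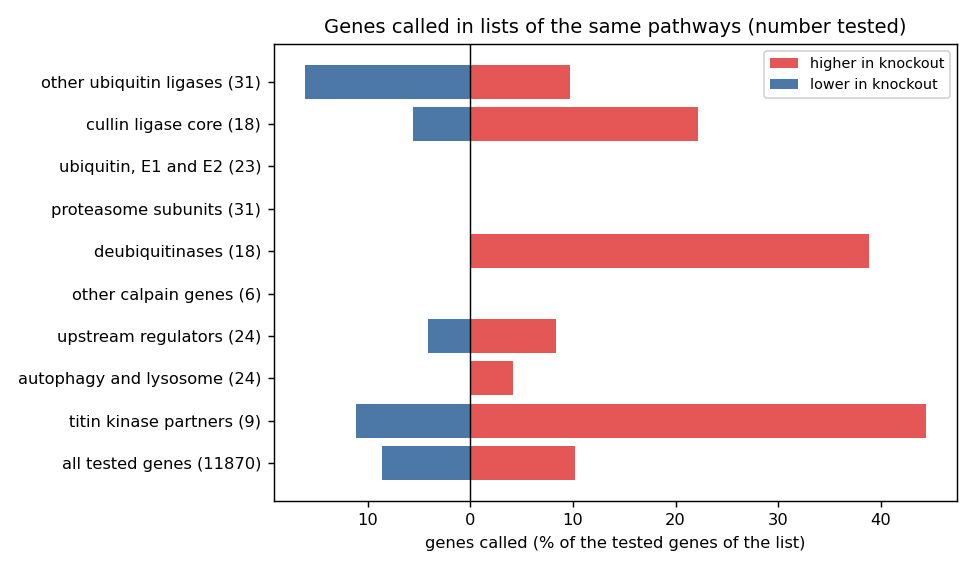
Percent of the tested genes of each list called higher (red, right) or lower (blue, left) in the knockout at an edgeR adjusted p below 0.05, with the number tested in brackets and all 11870 tested genes at the bottom. Deubiquitinases stand at 38.9% higher, while proteasome subunits, ubiquitin enzymes and other calpain genes have no bar.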

How the data were processed

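Poly(A) RNA of sorted cardiomyocytes from 10 mice was sequenced. The deposited values are raw, unscaled counts of reads per gene. Per the file headers, the authors produced this table with featureCounts 1.5.1, where 4 threads is the sole option given, on UCSC mm10 genes of an archive of 2012. Such a run ignores strand and drops reads that map to several places or genes. Per the submitters' processing notes, reads were aligned with STAR 2.5.3a, and Subread 1.5.2 is named beside featureCounts. The alignment files in the header carry another aligner's default name. The table has 14 columns of counts, of which 10 match these samples by name and 4 do not and were not used. It holds 0 mitochondrial genes, which are not analysed here. Lengths per gene are those of the deposited table.

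Genes were filtered with edgeR's filterByExpr (minimum count 10, minimum total 15), scaled with TMM and compared with edgeR's quasi-likelihood test (edgeR 4.0.16, R 4.3.3, Benjamini-Hochberg over 11870 genes, threshold 0.05, no covariate). Log2 CPM used a prior count of 1. SE is the log2 fold change divided by the square root of F. Totals of 8086656 to 25237696 put 3 counts at 0.126 to 0.384 CPM, and such counting limits cover counting error only. Alternatives were RLE, upper-quartile and library-total scaling, the replicate number as a block, no filter, a filter at a mean of 5 CPM, Y-linked or endothelial marker expression as a covariate, DESeq2 1.42.0, limma 3.58.1 voom with sample weights, leaving out each animal, and no division by length. Members and gene lists were chosen with earlier results of these data known. Genes of the lists were named by rule: per list, up to 2 rises and 2 falls of called genes whose mean reached 10 CPM. Fbxl22, Foxo1, Capns1, Nbr1, Skp1a, Cul1, Rbx1, Psmb8, Psmb9 and Psmb10 were added after their values were seen. The values of 1 listed gene are not reported here. Lists were described by counts only, with no set test.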

Additional observations from a re-analysis of the deposited data

Results flagged for a closer look

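In 40 groups of 5 values (a member, a share or ratio, Actn2 or the library total in 1 genotype), 3 had an animal whose gap to the nearest other exceeded 0.71 of the range of its group, where about 2 would by chance. Fbxo30 was at 4.99 log2 CPM in heterozygote 2, against 5.97 in the next lowest heterozygote (gap 0.792 of the range). The Trim63 share of the MuRF genes was 73.1% in heterozygote 5, against 69.1% in the next highest (gap 0.725). Heterozygote 1 totalled 25237696 counts, and the heterozygote nearest to it in depth 10309615 (gap 0.870). Without heterozygote 1, Trim54 and Trim32 were still called, with log2 fold changes of -0.89 (edgeR adjusted p 0.00696) and 0.69 (adjusted p 0.000729).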

How the results depend on the processing

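Actn2, Trim54 and Trim32 kept direction and call in all 20 alternative fits. For Trim54 the log2 fold change ran from -0.98 to -0.75 over 10 settings and from -0.94 to -0.67 with 1 animal left out, and for Trim32 from 0.66 to 0.77 and from 0.66 to 0.73. Scaling by library totals alone gave 4 members called in place of 2, adding Trim63 (0.319) and Cast (0.397). It also turned Trim55 (0.075) and Capn3 (0.028), and moved the share of calls that were higher in the knockout from 54.3% to 68.9%. Voom called Trim63 (0.241) and turned Capn3 (0.044). The endothelial covariate gave 1248 called genes in place of 2241 and turned Trim55 (0.027) and Capn1 (-0.007). With 1 animal left out, Trim63 ran from 0.19 to 0.271, Cast from 0.256 to 0.382, Trim55 from -0.032 to 0.019, Capn1 from -0.074 to 0.156 and Capn3 from -0.264 to 0.17, and the number of members called was 2 or 3. The filter at a mean of 5 CPM left no value for Capn3. The cause of these shifts was not tested.

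The replicate numbers are shared by the groups, and the deviations of same-numbered animals from their group means had correlations of 0.112, -0.012, -0.06, 0.185 and 0.141 for numbers 1 to 5 (over 11870 genes). As 2 of the 5 were below 0, the numbers were not taken as pairs. Heterozygotes 4 and 5 correlated best with their own number, and the other 3 did not. With the replicate block 2182 genes were called and no call of a member changed (Trim54 -0.818, Trim32 0.692). Differences in family shares kept their sign without division by length. Depth limits Capn3, at 18 to 85 reads per library, most among the members.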

Other observations

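Heterozygote 2 was the lowest or the highest of its group in 7 of the 10 members, lowest in Fbxo32, Fbxo30 and Cast and highest in Trim54, Capn1, Capn2 and Capn3. The other 9 animals were at an extreme in 2 to 5 members. The labels used here give nothing that sets this animal apart.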
